A study of Mus musculus with 6 samples.

Results

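The Cyp2b and Cyp3a genes encode cytochrome P450 enzymes of the endoplasmic reticulum, which oxidise drugs, steroids and bile acids in hepatocytes with electrons from P450 reductase, the product of Por. They were followed through 9 named genes, Cyp2b9, Cyp2b10, Cyp2b13, Cyp3a11, Cyp3a13, Cyp3a16, Cyp3a25, Cyp3a41a and Por. A gene was measured where the platform annotation gave a probe set exactly 1 symbol, and the probe set with the highest mean over all arrays stood for it. By that rule 7 of the 9 genes were measured, 3 of the Cyp2b and 4 of the Cyp3a family, among 18193 genes in all. The probe set of Cyp3a41a is shared with Cyp3a41b and is described apart from the measured members. Por was not analysed here, since no probe set is paired with it in the annotation used.

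Livers came from male mice of 10 weeks with the genotype L Pex5 -/- (KO, 3 livers) and from male WT mice of the same age (3 livers), 1 Affymetrix array per liver, and the design text calls the 3 of each group biological replicates. Pex5 is the import receptor for enzymes of the peroxisome matrix. The labels give both groups the same mixed background, Alb-Cre Tac:[Sw]fBR. Beyond this field, the labels do not say whether the WT mice carried Alb-Cre. Alb-Cre is a recombinase driven by the albumin promoter and therefore aimed at hepatocytes, while other liver cells would keep Pex5. Values are log2 levels made by RMA, differences are KO minus WT, the error of a mean is its SD among 3 livers and that of a difference is limma's SE, and a gene is called changed at an adjusted p under 0.05 over all 18193 genes. The levels of different probe sets cannot be ranked against each other.

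In mouse liver, Cyp2b10 is the classic target of the constitutive androstane receptor (CAR, gene Nr1i3), and Cyp3a11 that of the pregnane X receptor (PXR, gene Nr1i2). Both receptors sense foreign compounds and bile acids or steroids, pair with RXR and raise transcription of P450 genes. Cyp2b9, Cyp2b13, Cyp3a41a and the related Cyp3a44 are known as female-biased in adult mouse liver, where the male pattern of growth hormone release keeps them low, and Cyp3a16 is known as a fetal form that stays on in females.

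The lowest correlation between 2 livers of the same genotype was 0.989, and the highest between KO and WT was 0.976 (r across probe sets). Of 18193 genes, 24% were called, 14.2% as higher and 9.75% as lower in KO, and the arrays of the 2 groups did not overlap in 44.8%. Pex5 itself stood at 9.22 ± 0.11 in KO and 9.04 ± 0.14 in WT (SD, n = 3 each, adjusted p = 0.262 by limma), and whether its probe set lies in the deleted part is not given in the sources used here. Bacterial control transcripts were dimmer on the KO arrays, with array means of 8.82 to 8.92 in KO and 9.30 to 9.40 in WT. Centring the arrays on them adds 0.48 to every difference and moves the median over all genes to 0.42, against -0.05 as deposited, so the directions below are relative to the bulk of the genes. Hepatocyte markers were summed as unlogged levels and put back on the log2 scale, so the brightest genes weigh most. The sum was 16.58 to 16.64 in KO and 16.59 to 16.63 in WT. All 6 measured lay above background, and Fgb (-0.49) was the 1 called as lower. With control centring 5 of the 6 were called higher and 0 lower. A level of 4.90, under which 95% of 39 olfactory receptor genes had their mean, served as background.

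Cyp2b transcripts were higher in KO livers, and those of the measured Cyp3a genes were not called in either direction. Of the 7 measured members 3 were called higher (42.9%, against 14.2% of all genes) and 0 lower. The 3 are Cyp2b10, Cyp2b9 and Cyp2b13. The 4 that missed the threshold, Cyp3a11, Cyp3a13, Cyp3a25 and Cyp3a16, had unadjusted p-values of 0.894, 0.157, 0.0179 and 0.519 from limma. The median difference over the 7 was -0.01. The groups did not overlap in 4 of the 7 (57.1%, against 44.8% of all genes), the 3 Cyp2b genes and Cyp3a25.

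**Figure D1:**
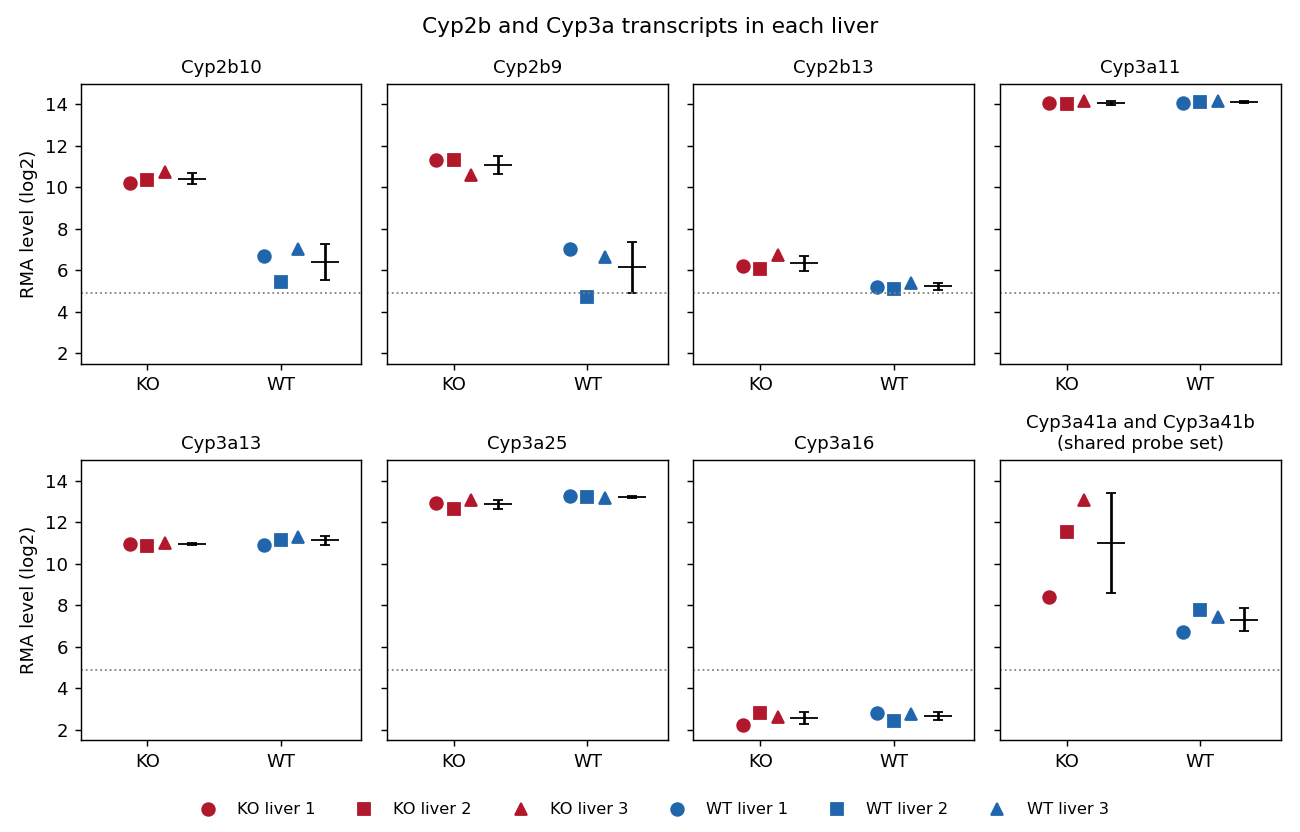
RMA log2 level (vertical axis) of the 7 measured genes and of the probe set shared by Cyp3a41a and Cyp3a41b in each liver, KO left and WT right, with the mean and SD over 3 livers in black and the background of 4.90 as a dotted line. Cyp2b10 and Cyp2b9 lay above 10 in all 3 KO livers and at or below 7.04 in all 3 WT livers, while the Cyp3a11 levels of both groups lay between 14.00 and 14.18.

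Cyp2b10 encodes the CAR-inducible P450 of mouse liver. Its brightest probe set, 1451787_at, read 10.20, 10.33 and 10.72 in KO livers 1, 2 and 3, against 6.70, 5.43 and 7.04 in WT livers 1, 2 and 3. Every KO liver stood far above the highest WT liver, and WT liver 2 was the lowest of its group. The mean was 10.42 ± 0.27 in KO and 6.39 ± 0.85 in WT, a difference of 4.02 ± 0.37 (SE, adjusted p = 0.000295 by limma), or 16.3-fold. In a bulk liver sample, more cells with a transcript and more transcript per cell cannot be told apart.

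Cyp2b10 was read by 2 more probe sets, which the array's naming marks as able to bind several transcripts. The probe set 1422257_s_at read 9.96, 10.24 and 10.47 in KO livers, against 5.57, 4.01 and 6.45 in WT livers. The probe set 1425645_s_at read 10.21, 10.39 and 10.75 in KO livers, against 5.83, 3.72 and 6.76 in WT livers. All 3 probe sets placed WT liver 2 lowest, and both of these put it below background. Their differences were 4.88 ± 0.52 and 5.01 ± 0.65 (adjusted p = 0.000819 and 0.00199 over all 45037 probe sets by limma), so the probe set with the highest mean gave the smallest of the 3 differences. Without WT liver 2, the 3 differences were 3.54, 4.21 and 4.15.

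Cyp2b9 is a female-biased P450. It read 11.32, 11.32 and 10.58 in KO livers 1, 2 and 3, against 7.04, 4.71 and 6.66 in WT livers 1, 2 and 3. The groups did not overlap, KO liver 3 was the lowest of its group, and WT liver 2 was again the lowest of all 6 and under background. The mean was 11.07 ± 0.43 in KO and 6.13 ± 1.25 in WT, a difference of 4.94 ± 0.55 (SE, adjusted p = 0.000696 by limma), or 30.7-fold. Without WT liver 2 the difference was 4.23, or 18.7-fold (adjusted p = 0.000153).

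Cyp2b13, also female-biased, read 6.23, 6.05 and 6.73 in KO livers 1, 2 and 3, against 5.20, 5.08 and 5.39 in WT livers 1, 2 and 3. The groups did not overlap, and all 3 WT values were close to the background of 4.90. The mean was 6.34 ± 0.35 in KO and 5.22 ± 0.16 in WT, a difference of 1.12 ± 0.18 (SE, adjusted p = 0.0035 by limma), or 2.17-fold. WT liver 2 was the lowest here too. Cyp2b13 probes may bind Cyp2b9 or Cyp2b10 transcripts, and whether they do was not tested. A further family gene, Cyp2b19, stood below background in both groups (2.91 ± 0.07 in KO and 3.19 ± 0.24 in WT, adjusted p = 0.155).

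The upstream sequences show how close these 3 genes are to one another. The lines below give the 250 bases before the RefSeq start, 5′ to 3′ on the plus strand of GRCm38.p6, with the half-site AGGTCA of nuclear receptors such as CAR in capitals. The windows are chr7:25897408-25897657 for Cyp2b10, chr7:26173159-26173408 for Cyp2b9 and chr7:26061245-26061494 for Cyp2b13.
Cyp2b10: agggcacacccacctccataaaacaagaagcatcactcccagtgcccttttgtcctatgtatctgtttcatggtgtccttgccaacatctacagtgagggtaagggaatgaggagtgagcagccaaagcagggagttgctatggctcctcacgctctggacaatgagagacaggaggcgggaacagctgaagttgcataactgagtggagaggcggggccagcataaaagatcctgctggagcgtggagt
Cyp2b9: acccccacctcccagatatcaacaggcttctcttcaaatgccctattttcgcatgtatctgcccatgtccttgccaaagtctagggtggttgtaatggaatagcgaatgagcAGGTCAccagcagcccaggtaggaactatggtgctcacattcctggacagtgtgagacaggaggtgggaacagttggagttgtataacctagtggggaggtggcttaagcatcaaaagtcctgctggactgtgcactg
Cyp2b13: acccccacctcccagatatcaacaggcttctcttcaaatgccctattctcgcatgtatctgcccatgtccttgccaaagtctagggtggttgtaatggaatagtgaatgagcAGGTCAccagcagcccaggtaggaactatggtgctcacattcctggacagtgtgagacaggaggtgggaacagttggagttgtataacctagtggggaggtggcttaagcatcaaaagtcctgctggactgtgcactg
The Cyp2b9 and Cyp2b13 windows share 248 of 250 bases (99.2%). Counted from 1 at the 5′ end of the Cyp2b9 window, the 2 differences are T48C and C104T, with the Cyp2b9 base first. Cyp2b10 shares 182 of 240 aligned bases (75.8%) with each of them. AGGTCA begins 138 bases before the start in Cyp2b9 and Cyp2b13 and is not in the Cyp2b10 window. It is found on either strand in 14% of 32851 RefSeq windows of this length. AGTTCA, the other half-site searched (11.8% of windows), was in none of the 3, nor was the STAT motif TTCNNNGAA (7.02% of windows). The C/EBP motif TTGCNNAA (9.56% of windows) was in each of the 3, beginning 58 bases before the start in Cyp2b10 and 180 in Cyp2b9 and Cyp2b13. The distal element through which CAR is known to act on Cyp2b10 lies outside these windows. Cyp2b9 and Cyp2b13 thus had almost the same 250 bases and differences of 4.94 and 1.12, whose inequality was not tested and which come from probe sets that may respond differently.

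**Figure D2:**
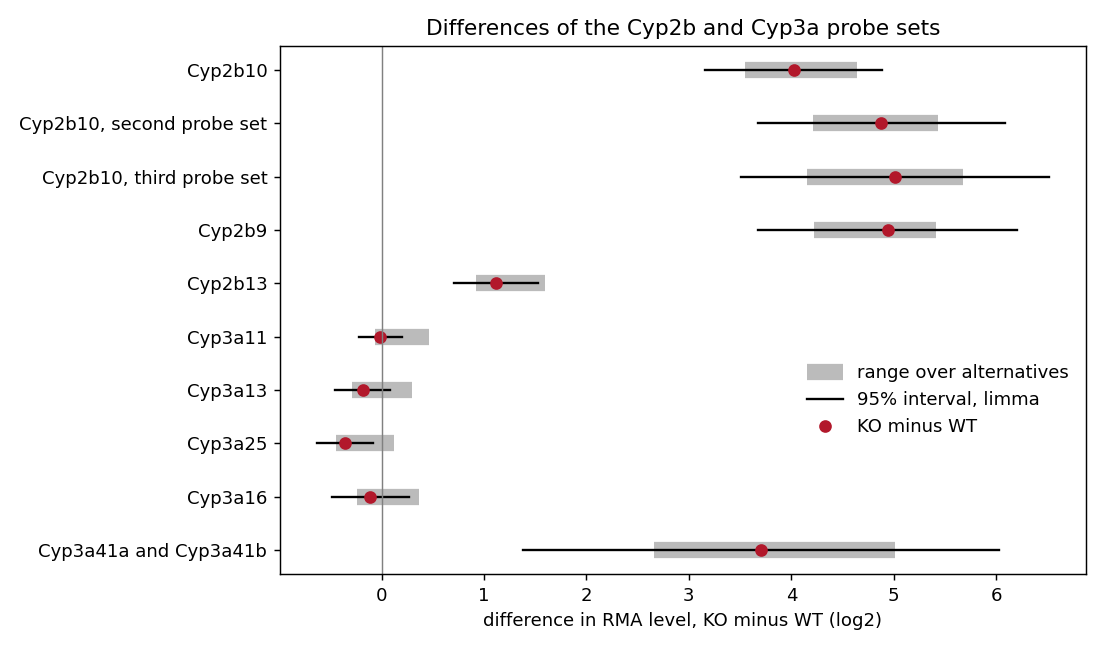
Difference in RMA log2 level, KO minus WT (horizontal axis), for the measured genes, the other 2 Cyp2b10 probe sets and the probe set shared by Cyp3a41a and Cyp3a41b, with limma's 95% interval (line) and the range over the alternative analyses (grey bar). The Cyp2b bars lie wholly above 0, and the bars of Cyp3a11, Cyp3a13, Cyp3a25 and Cyp3a16 span 0.

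In the Cyp3a family, the enzymes abundant in adult males gave small differences. Cyp3a11, the main PXR-inducible Cyp3a enzyme of mouse liver, read 14.08, 14.00 and 14.18 in KO livers 1, 2 and 3, against 14.05, 14.10 and 14.14 in WT livers 1, 2 and 3. The groups overlapped fully, with the lowest and the highest value both from KO livers. The difference was -0.01 ± 0.09 (SE, adjusted p = 0.93 by limma) with a 95% interval of -0.22 to 0.20. The highest value of any probe set on any array was 14.9, and saturation of the Cyp3a11 probes was not tested. With the arrays centred on bacterial controls the difference was 0.46 (adjusted p = 0.00599), a call as higher.

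Cyp3a13, a Cyp3a enzyme of liver and intestine, read 10.95, 10.88 and 11.00 in KO livers, against 10.92, 11.14 and 11.31 in WT livers. The groups overlapped through WT liver 1. The difference was -0.18 ± 0.12 (SE, adjusted p = 0.283 by limma), with a 95% interval of -0.45 to 0.09, and 0.29 with control centring (adjusted p = 0.0631).

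Cyp3a25, another Cyp3a enzyme of adult liver, read 12.93, 12.64 and 13.05 in KO livers 1, 2 and 3, against 13.27, 13.23 and 13.19 in WT livers 1, 2 and 3. All 3 KO livers lay under the lowest WT liver. The difference of -0.36 ± 0.12 missed the threshold (SE, adjusted p = 0.0655 by limma), with a 95% interval of -0.63 to -0.08. It passed with the arrays centred on their medians (-0.39, adjusted p = 0.0471) and with trend and robust eBayes (adjusted p = 0.0261), and its sign turned with control centring (0.12, adjusted p = 0.446).

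Cyp3a16, the fetal and female-biased form, was below background in all 6 livers. It read 2.25, 2.80 and 2.60 in KO livers, against 2.80, 2.43 and 2.75 in WT livers (adjusted p = 0.646 by limma), so no fold is given.

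The probe set shared by Cyp3a41a and Cyp3a41b, 1419704_at, gave the widest spread of the family. It read 8.39, 11.55 and 13.09 in KO livers 1, 2 and 3, against 6.69, 7.78 and 7.44 in WT livers 1, 2 and 3. All 3 KO livers lay above the highest WT liver but KO liver 1 was much nearer to it than KO livers 2 and 3. The mean was 11.01 ± 2.40 in KO and 7.30 ± 0.56 in WT, a difference of 3.70 ± 1.01 (SE, adjusted p = 0.0422 over all 45037 probe sets by limma), or 13.0-fold. The call was lost under 8 of 13 alternatives, among them leaving out KO liver 2 (3.43, adjusted p = 0.144), KO liver 3 (2.66, or 6.34-fold, adjusted p = 0.0935) or any 1 WT liver (3.40 to 3.94, adjusted p of 0.0759 to 0.097). Without KO liver 1 the difference was 5.02, or 32.3-fold (adjusted p = 0.00187).

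The neighbouring Cyp3a44, likewise female-biased, read 5.22, 5.64 and 6.14 in KO livers 1, 2 and 3, against 5.21, 5.44 and 5.49 in WT livers 1, 2 and 3. KO livers 2 and 3 lay above all WT livers and KO liver 1 within the WT range. The difference of 0.28 ± 0.21 did not pass (SE, adjusted p = 0.362 by limma, 95% interval -0.21 to 0.78), and 0.76 with control centring did (adjusted p = 0.0179). KO liver 1 was thus the lowest and KO liver 3 the highest of its group for Cyp2b10, Cyp3a41a with Cyp3a41b, and Cyp3a44, while Cyp2b13 was lowest in KO liver 2 and Cyp2b9 in KO liver 3.

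These Cyp3a genes lie on chromosome 5 in the order Cyp3a13, Cyp3a16, Cyp3a41b, Cyp3a41a, Cyp3a44, Cyp3a11 and Cyp3a25. The lines below show 3 upstream windows with different readings, that of the shared probe set, that of Cyp3a16, which was below background, and that of Cyp3a11. They hold the 250 bases before the RefSeq start, 5′ to 3′ on the minus strand of GRCm38.p6, with AGGTCA and AGTTCA on either strand in capitals. The windows are chr5:145720137-145720386 for Cyp3a41a, chr5:145469724-145469973 for Cyp3a16 and chr5:145879855-145880104 for Cyp3a11.
Cyp3a41a: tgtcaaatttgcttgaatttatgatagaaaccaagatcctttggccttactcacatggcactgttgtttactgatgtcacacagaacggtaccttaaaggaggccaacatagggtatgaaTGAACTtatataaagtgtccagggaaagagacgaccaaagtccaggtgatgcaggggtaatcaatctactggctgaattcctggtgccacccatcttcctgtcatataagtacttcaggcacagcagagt
Cyp3a16: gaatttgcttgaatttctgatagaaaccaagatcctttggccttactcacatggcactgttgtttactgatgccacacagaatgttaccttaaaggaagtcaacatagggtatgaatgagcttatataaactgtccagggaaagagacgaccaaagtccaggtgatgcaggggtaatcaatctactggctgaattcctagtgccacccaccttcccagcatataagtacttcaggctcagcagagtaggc
Cyp3a11: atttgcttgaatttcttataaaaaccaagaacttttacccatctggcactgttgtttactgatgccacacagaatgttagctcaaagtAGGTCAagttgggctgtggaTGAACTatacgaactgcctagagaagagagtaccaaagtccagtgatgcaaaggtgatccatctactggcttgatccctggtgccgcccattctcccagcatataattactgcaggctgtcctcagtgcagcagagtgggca
Cyp3a41a shares 231 of 246 aligned bases (93.9%) with Cyp3a16 and 249 of 250 with Cyp3a41b. The shared probe set carries the symbols of Cyp3a41a and Cyp3a41b, so it cannot separate their transcripts. Cyp3a44 shares 236 of 250 bases with Cyp3a41a and 236 of 246 with Cyp3a16. Cyp3a11 shares 190 of 235 aligned bases (80.9%) with Cyp3a41a. AGTTCA, read on the opposite strand as TGAACT, is in the Cyp3a41a window 130 bases and in the Cyp3a11 window 142 bases before the start, and AGGTCA is in the Cyp3a11 window at 162. The Cyp3a16 window holds neither half-site. Direct repeats of the half-sites spaced by 3 or 4 bases and everted repeats spaced by 6, the arrangements known for PXR and CAR, were in none of the Cyp2b or Cyp3a windows searched, nor was TTCNNNGAA. Such repeats are rare with these exact letters, at 0.0122%, 0.0244% and 0.00913% of all windows.

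**Figure D3:**
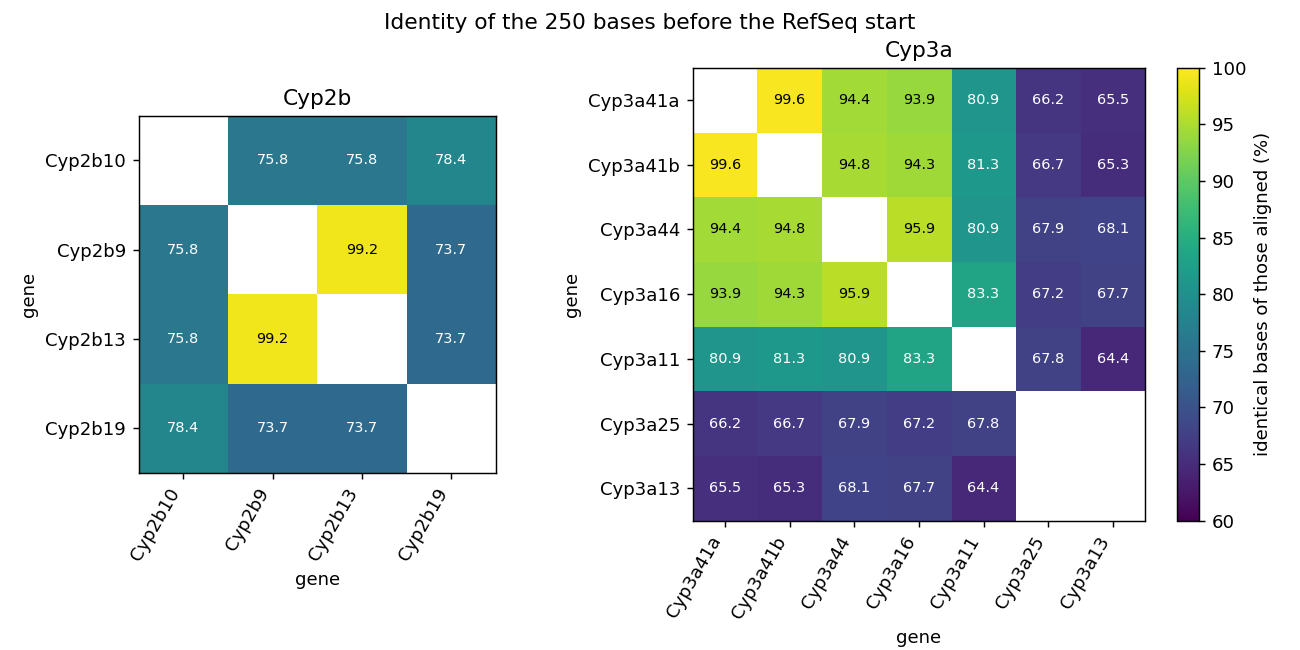
Share of identical bases among aligned bases in the 250 bases before the RefSeq start, in percent, for pairs of Cyp2b genes (left) and Cyp3a genes (right), with both axes listing genes, and with each gene against itself and pairs of under 100 aligned bases left white. Cyp2b9 and Cyp2b13 share 99.2%, and Cyp3a41a, Cyp3a41b, Cyp3a44 and Cyp3a16 share 93.9% to 99.6% with one another.

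The transcript of CAR was lower in KO livers. In a list of CAR, PXR, partner receptors, cofactors and liver transcription factors, 14 of 16 genes were measured. Of these 14, 0 were called higher and 3 lower, against 14.2% and 9.75% of all genes. The median was -0.14 (all genes -0.05). Nr1i3, which encodes CAR, stood at 8.44 ± 0.29 in KO and 10.08 ± 0.08 in WT, a fall of 3.13-fold (-1.65 ± 0.15 SE, adjusted p = 0.000241 by limma, and -1.17 with control centring). Ppargc1a, a coactivator that also acts with CAR and PXR, was 3.30-fold lower (-1.72). Rxra, the RXR partner, differed by -0.43 ± 0.09 (adjusted p = 0.0141), which turned to 0.05 with control centring and missed the threshold without KO liver 1 or KO liver 2 (adjusted p = 0.0577 and 0.0628). Nr1i2, which encodes PXR, stood at 7.56 ± 0.30 in KO and 7.11 ± 0.20 in WT and was not called (0.45 ± 0.17 SE, adjusted p = 0.0864), though it passed as higher with control centring (0.93, adjusted p = 0.00347). With control centring 7 of the 14 were called higher and 2 lower.

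Other known targets of CAR and PXR went both ways. Of 19 measured (22 listed), 9 were called higher and 6 lower, against 14.2% and 9.75% of all genes. The median was 0.46 (all genes -0.05), and 11 were higher and 4 lower with control centring. The lower count was 3 without KO liver 2 and 4 without KO liver 1. Abcc4, a basolateral efflux transporter of hepatocytes, was at least 70.3-fold higher, as its WT arrays all lay under background (11.04 ± 0.25 in KO and 4.59 ± 0.08 in WT, adjusted p = 7.53e-07). The glutathione transferase Gstm3 was 4.19-fold higher (13.49 ± 0.02 in KO and 11.43 ± 0.38 in WT, adjusted p = 0.000193). The carboxylesterase Ces2a was 5.26-fold lower (9.77 ± 0.35 in KO and 12.17 ± 0.20 in WT, adjusted p = 0.000111). Cyp2c37 was lower with all KO arrays under background, by at least 1.34-fold (adjusted p = 0.0269), and the WT arrays read 5.50, 4.03 and 6.43, with WT liver 2 under background too. That bound was 2.09-fold without WT liver 2 and could not be given without WT liver 3, and the call was lost without any 1 KO liver or WT liver 1 (adjusted p of 0.0639 to 0.0851). Both Abcc4 and Gstm3 are also known targets of NRF2.

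A list of electron carriers, heme oxygenases and enzymes that depend on P450 reductase had 14 measured genes. These 14 include Ephx2, an epoxide hydrolase outside those classes, which was not called (-0.01, adjusted p = 0.948 by limma). Of the 14, 2 were higher and 1 lower, shares near those of all genes (14.2% and 9.75%), with a median of 0.11. Cyb5r1, a cytochrome b5 reductase, rose 11.4-fold (9.81 ± 0.33 in KO and 6.30 ± 0.46 in WT, adjusted p = 6.91e-05). Cyb5r3, the main microsomal cytochrome b5 reductase, fell 1.84-fold (11.12 ± 0.06 in KO and 12.00 ± 0.10 in WT, adjusted p = 0.000534), and Hmox2, the constitutive heme oxygenase, rose 1.39-fold (adjusted p = 0.00553). Cyb5a, the cytochrome b5 that passes electrons to many P450 enzymes, differed by -0.17 ± 0.09 (adjusted p = 0.199), and by 0.30 with control centring (adjusted p = 0.0202). With control centring 10 were higher and 1 lower, and 2 were lower without KO liver 1 or WT liver 3.

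Female-biased liver transcripts other than the members were higher in 8 of 15 measured genes (19 listed) and lower in 1. The shares of all genes were 14.2% and 9.75%, and the list median was 0.79 (all genes -0.05). Hao2, a peroxisomal hydroxy acid oxidase, rose 19.4-fold (9.30 ± 0.33 in KO and 5.02 ± 0.34 in WT). Acot3, a peroxisomal thioesterase, rose 19.3-fold (10.20 ± 0.22 in KO and 5.94 ± 0.12 in WT) and is also a known target of PPARalpha. The nuclear factor Tox and the membrane protein Rtn4 rose 6.83-fold and 5.21-fold. All 4 had adjusted p-values of at most 0.00319 (limma). The WT arrays of Hao2 (5.35, 4.67 and 5.03) and Tox (4.88, 4.83 and 5.26) lay near or under background, which limits their folds. Other female-biased genes were not called, among them Cux2 (-0.25 ± 0.11, adjusted p = 0.124, and 0.23 with control centring), a repressor of male-biased genes, and the dim Sult3a1 (below background in both groups). The single lower gene, Ntrk2 (-0.31), lost its call without any 1 array (adjusted p of 0.0547 to 0.148) and turned to 0.16 with control centring, where 11 were higher and 0 lower.

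Male-biased transcripts were called lower in 13 of 18 measured genes (22 listed) and higher in 0, against 9.75% and 14.2% of all genes. The median was -2.33. The steroid enzyme Hsd3b5 stood at 5.04 ± 0.58 in KO and 11.88 ± 0.17 in WT, a fall of 114-fold (adjusted p = 6.66e-06 by limma). The KO arrays of Hsd3b5 (5.25, 5.48 and 4.38) lay near or under background, which limits this fold. Slco1a1, an anion uptake carrier, read 6.03, 8.42 and 5.45 in KO livers and 11.57, 12.11 and 11.19 in WT livers. KO liver 2 was the highest of its group, and the fall of 31.8-fold was 59.0-fold without KO liver 2 and 21.1-fold without KO liver 3. Susd4 fell 8.38-fold, and the growth factor receptor Egfr fell 7.52-fold. The male-biased P450 Cyp4a12a differed by -0.06 ± 0.10 (adjusted p = 0.647), and was the 1 called higher with control centring (0.41). With control centring 12 were lower and 1 higher. The sex-biased lists were chosen with earlier results of these arrays known and give no independent support.

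**Figure D4:**
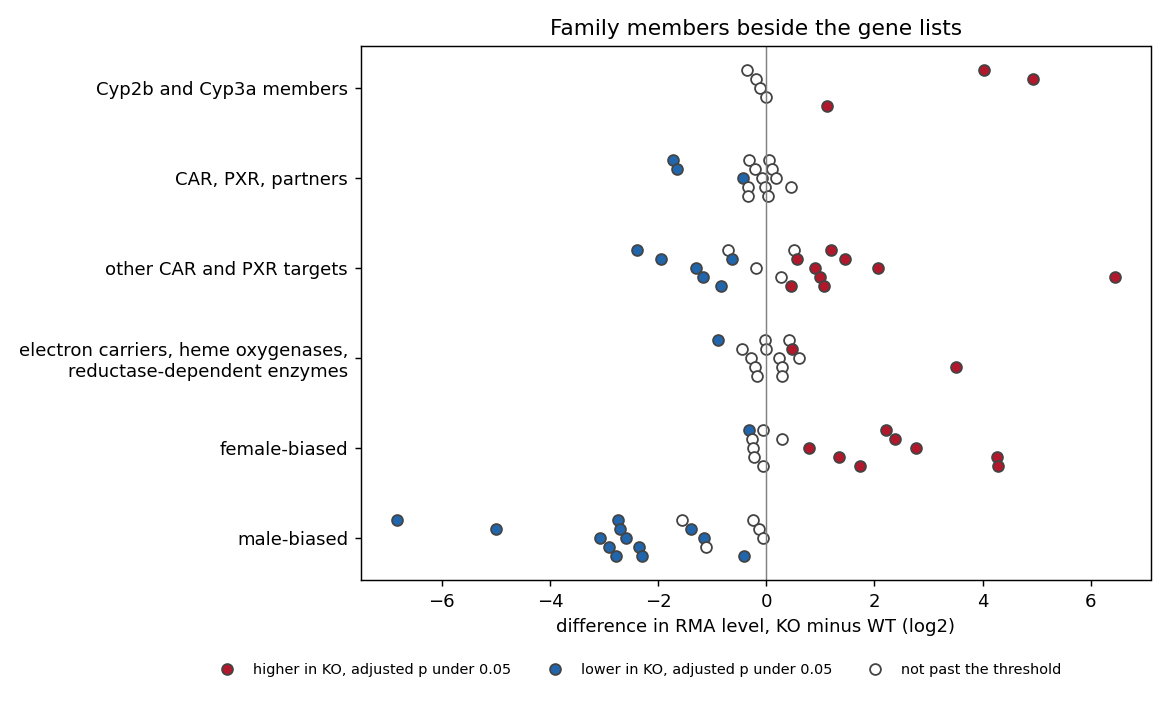
Difference in RMA log2 level, KO minus WT (horizontal axis), for the measured Cyp2b and Cyp3a members and for each gene of the 5 lists, filled where called higher or lower at an adjusted p under 0.05, with vertical offsets only to separate points. Male-biased genes lie mostly to the left (13 of 18 called lower), female-biased genes to the right (8 of 15 called higher), and CAR and PXR targets on both sides.

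Pericentral hepatocyte markers belong to the zone where Cyp2b and Cyp3a enzymes are known to be most abundant. They were called lower in 4 of 11 genes (against 9.75% of all genes) and higher in 0 (against 14.2%), with a median of -0.21. The 4 were Cyp1a2 (-0.83), which is also in the list of CAR and PXR targets, Lect2 (-0.80), Glul (-0.70) and Oat (-0.64). The lower count was 2 without KO liver 2, WT liver 2 or WT liver 3, and with control centring 0 of the 11 were lower and 4 higher. Of 6 measured periportal markers 3 were lower (against 9.75% of all genes), Pck1, Cyp2f2 and Hal. Hsd17b13 was higher (against 14.2% of all genes), and the list median was -0.49. Hsd17b13 (0.34) lost its call without KO liver 1, KO liver 2, WT liver 1 or WT liver 2 (adjusted p of 0.0572 to 0.112). With control centring 2 were lower and 2 higher, and Hal was not called (-0.32, adjusted p = 0.123).

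Markers of other liver cells are given beside the 24% of all genes that were called. Summed unlogged and put back on the log2 scale, 7 Kupffer cell markers stood at 11.78 to 12.16 in KO and 11.37 to 12.54 in WT. Of them 0 were called (2 lower without WT liver 3). Of 6 endothelial markers 1 was higher and 2 lower (summed level 10.55 to 10.74 in KO and 10.90 to 11.16 in WT), where Lyve1 was at least 3.56-fold higher and Clec4g (-0.42) and Kdr (-0.31) were the lower genes. Kdr lost its call without any 1 array, and Clec4g without any 1 array other than WT liver 2. Of 7 stellate markers Reln and Hand2 were lower (10.31 to 10.59 in KO and 10.68 to 10.81 in WT), and of 5 measured bile duct markers Krt19 was lower (7.04 to 7.16 in KO and 7.24 to 7.51 in WT). All KO arrays of Krt19 lay under background, so its fall was at least 1.13-fold. Only 2 of the 5 bile duct markers in KO and 3 in WT had means above background. Of 6 measured lymphocyte markers 0 were called (8.43 to 8.97 in KO and 8.18 to 9.07 in WT). Only 3 of these 6 in KO and 4 in WT had means above background. The brightest, Ptprc (7.94 in KO and 7.66 in WT), makes up most of the lymphocyte sum. Without any 1 KO liver Hand2 lost its call, and Krt19 lost its call without KO liver 1, KO liver 3, WT liver 1 or WT liver 3. With control centring, 1 Kupffer, 2 endothelial, 3 stellate, 1 bile duct and 1 lymphocyte marker were higher and 0 lower. Their part in the Cyp2b and Cyp3a values was not tested.

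The genes whose levels ran most like each called Cyp2b gene were found by the root mean square distance between log2 levels centred on their mean over the 6 arrays. For Cyp2b10 they were the keratin Krt23 (distance 0.373), the thioesterase Acot2 (0.442) and Acot3 (0.481), which differed by 3.96, 4.42 and 4.27. For Cyp2b9 they were the fatty acid translocase Cd36 (0.347), the VLDL receptor Vldlr (0.513) and the carbonic anhydrase Car2 (0.636), with differences of 4.92, 4.34 and 4.46. For Cyp2b13 they were the kinase Dyrk3 (0.111), Ccdc34 (0.127) and H2-Q2 (0.131), with differences of 0.95, 1.23 and 1.18. The 6 arrays fall into 2 groups, and the distance is a description of these arrays.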

How the data were processed

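Per the labels' protocols, RNA of 6 livers was extracted with Trizol. Each deposited value is the log2 level of 1 probe set; RMA is named in the submitters' processing notes, and its version is not given in the sources used here. The log2 scale was read from the values (2.15 to 14.9). RMA forces arrays towards 1 distribution. No detection calls were used, and the number of arrays limits the precision.

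Of 45101 probe sets, 34945 have 1 symbol (18193 genes), 932 several, 9160 none here, and 64 are controls. The fit used limma 3.58.1 under R 4.3.3 (group as the factor, two-sided, Benjamini-Hochberg over all genes, no filter), after a test on simulated data. Probe sets with several symbols were fitted across all 45037 probe sets. Where all arrays of 1 group lay under background, the fold is a lower bound with those arrays set to the background. Phage Cre controls were left out of the 41 bacterial controls, as the labels name Alb-Cre in the background of both groups. The members and lists were chosen with earlier results of these data known. The text names the members, all other Cyp2b and Cyp3a probe sets, Pex5 and the 3 genes most like each called member. Of each list it names up to 4 called genes with the largest difference. Nr1i2, Cyb5a, Ephx2, Cux2, Sult3a1, Ntrk2, Cyp4a12a and Ptprc were named outside this rule, after their values were seen. Upstream windows come from RefSeq (GRCm38.p6) and matched 11 family genes.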

Additional observations from a re-analysis of the deposited data

How the results depend on the processing

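The calls of Cyp2b10, Cyp2b9 and Cyp2b13 as higher held under all 15 alternatives, with differences of 3.54 to 4.64, 4.23 to 5.42 and 0.92 to 1.59, and adjusted p-values of at most 0.0147. With control centring 4 members were called higher, the fourth being Cyp3a11. The count of lower members was 1 with array median centring and 1 with trend and robust eBayes, Cyp3a25 in both, and 0 without any 1 array. Signs turned for genes that were not called: Cyp3a11 was 0.060 with quantile normalization and 0.46 with control centring, and ran over -0.061 to 0.031 without 1 array (0.031 without KO replicate 2, 0.0083 without WT replicate 3); Cyp3a13 was 0.29 and Cyp3a25 0.12 with control centring; and Cyp3a16 was 0.37 with control centring and ran over -0.235 to 0.042 without 1 array (0.042 without KO replicate 1), and it has no value under the filter on dim genes. Pex5 passed as higher with control centring (0.66). The probe set of Cyp3a41a and Cyp3a41b also lost its call with quantile normalization (3.62, adjusted p = 0.0523), array weights (3.27, 0.0837) and trend and robust eBayes (0.15).

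Over all genes, 4166 probe sets were higher and 2952 lower when each was tested, 12051 genes were higher and 439 lower with control centring, 1285 and 732 at an adjusted p under 0.01, and 550 and 327 at 2-fold or more. Leaving out 1 array gave 1497 to 2424 higher and 888 to 1679 lower, lowest without KO replicate 2 (without KO replicate 1, 1604 and 984; without KO replicate 3, 1956 and 1156). Of 442 recomputed list counts, 360 stayed within 1.5 times and 82 did not. The labels state no pairing of the livers by replicate number, and 3 arrays per group are too few to settle it. Same-numbered arrays' deviations correlated at 0.105, -0.018 and 0.105. KO 1 and KO 3 were closest to the WT array of their own number, and KO 2 was closest to WT 1. With a replicate block 2471 genes were higher and 1618 lower, and no member's call changed. The causes of these shifts were not tested. Cyp2b13 and Cyp3a16 are limited by signal over background.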
